A study of Homo sapiens with 35 samples.

Results

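BE(2)-C, a human neuroblastoma cell line, was exposed to 1 mM valproic acid (VPA) for 6 h and hybridised to 3 Affymetrix arrays, which were compared across all genes with 3 arrays of BE(2)-C cells kept for 6 h in the DMSO vehicle. These are 6 of the 35 arrays of a series in which the same line received VPA, 5 µM all-trans retinoic acid (ATRA), both agents or DMSO for 6, 24 or 72 h. The series was made to find a gene expression signature of neuroblastoma differentiation. Of its 12 groups, 4 others are used below, with 3 arrays each: ATRA plus VPA at 6 h, ATRA at 6 h, VPA at 24 h and DMSO at 24 h. The replicates are numbered in the labels, but nothing says that they came from separate cultures, so the p-values measure the spread between these samples, which may be technical. Every measurement comes from 1 cell line.

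VPA is a branched short-chain fatty acid used against epilepsy and as a mood stabiliser. It inhibits histone deacetylases (HDACs), most strongly those of class I, the enzymes that remove acetyl groups from lysines of histones and of other proteins. Acetyltransferases such as KAT5, CREBBP and EP300 add these groups, many proteins with a bromodomain read them, and HDACs are held at genes by corepressor complexes. HDAC inhibition raises histone acetylation within hours and changes transcription in both directions. In neuroblastoma, a tumour of the sympathetic lineage whose cells make catecholamines, retinoids and HDAC inhibitors are both studied as differentiation agents.

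The values were intensities on a linear scale, 1 per probe set, and each of 11884 genes was represented by its brightest probe set. All comparisons of groups were made on log2(intensity + 1) with limma and a Benjamini-Hochberg adjustment over all 11884 genes, and a gene was called when its adjusted p was under 0.05. A log2 change is VPA minus DMSO, and its error is the standard error (SE) of the fit. No detection calls were used, and an intensity near the lower quartile of an array, which lay between 20.8 and 23.6 over the 35 arrays, may hold no signal of the gene. The 6 arrays had median intensities of 56.98 to 57.85 with VPA and 55.85 to 57.47 with DMSO. The log2 ratio of 3' to 5' control probe sets, a measure of RNA integrity, was 0.38, 0.49 and 0.47 on the VPA arrays and 0.21, 0.38 and 0.23 on the DMSO arrays. With that ratio as a covariate 1439 genes passed, against 1334 without it, so the count did not shrink. A count does not show that the same genes passed. The ratio had a single slope per gene over all 35 arrays, so its part on the 6 h arrays alone was not tested. Array 1 of ATRA plus VPA at 6 h and array 1 of DMSO at 24 h stand apart from their groups, and the counts and medians that rest on them are given with and without them. The noradrenergic identity of the line was visible at 6 h in both groups. Chromogranin A (CHGA) averaged 7980 ± 310 with VPA and 8530 ± 583 with DMSO, MYCN averaged 6990 ± 311 with VPA and 7360 ± 154 with DMSO, and the catecholamine enzyme DDC averaged 5910 ± 224 with VPA and 5980 ± 201 with DMSO (SD, n = 3 each).

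After 6 h of VPA, 1334 of 11884 genes passed the test, which is 11.2%. Of these, 773 rose (6.5% of all genes) and 561 fell (4.72%). The groups did not overlap in 765 of the 773 rises (6.44% of all genes) and in 557 of the 561 falls (4.69%). Without regard to the test, groups that do not overlap were found with VPA higher in 15.8% of all genes and with VPA lower in 14.2%. Changes were small for most called genes: 89.8% of the rises and 97.3% of the falls were under 2-fold, and the median called change was 0.53 for rises and -0.45 for falls on the log2 scale, against a median of 0.0 over all genes. At least 2-fold changes were unevenly split, with 79 rises and 15 falls. The rises began from lower levels than the falls. On the 3 ATRA 6 h arrays the genes that rose had a median intensity of 149, the genes that fell 484 and all genes 97.3. These arrays are in neither group of the comparison and enter its fit only through the shared estimate of the spread and the choice of probe set. When 1 of the 6 arrays was left out, between 933 and 1068 genes passed, and without VPA array 2 the count of falls dropped to 368. A bulk measurement cannot tell fewer cells that express a gene from less of its RNA per cell.

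**Figure D1:**
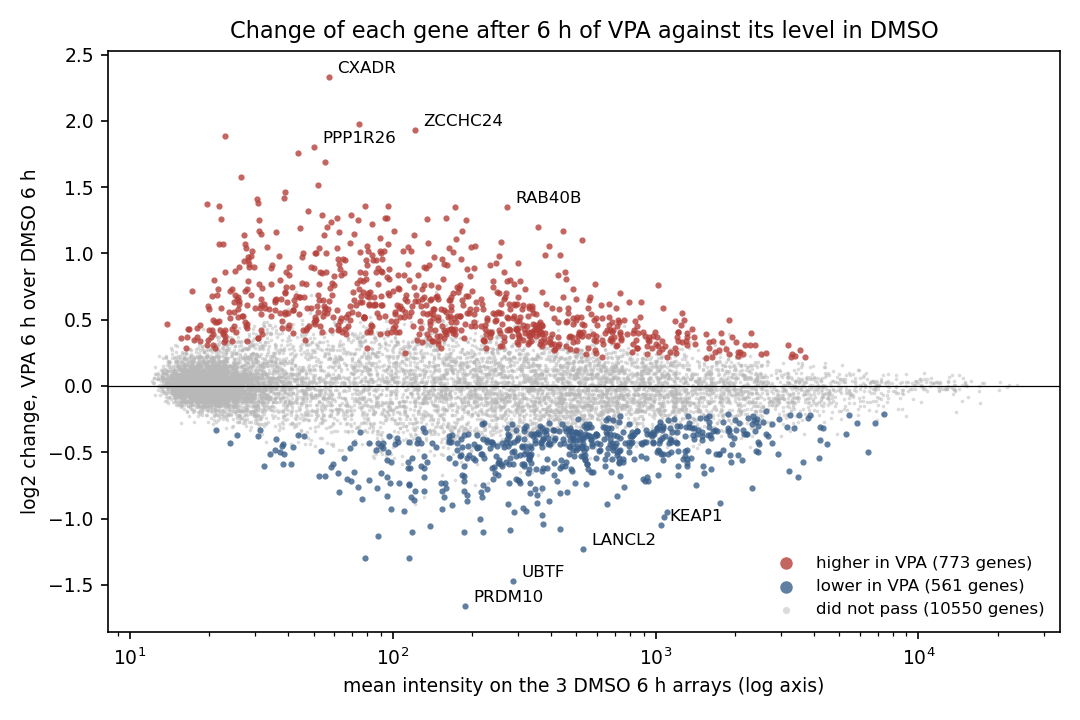
Each point is a gene, with its mean intensity on the 3 DMSO 6 h arrays on a log axis and its log2 change, VPA over DMSO at 6 h, on the vertical axis; red points rose (773), blue points fell (561) and grey points did not pass. CXADR, the largest rise, had a mean DMSO intensity of 57.0, and LANCL2 and KEAP1, among the largest falls, had 529 and 1050.

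The largest rise was that of CXADR, the coxsackievirus and adenovirus receptor, an adhesion protein of cell junctions. Its intensity was 261, 299 and 308 on the VPA arrays and 60.3, 64.3 and 46.4 on the DMSO arrays, a log2 change of 2.33 ± 0.14 or 5.04-fold (limma adjusted p = 6.7e-12). The lowest VPA array was above the highest DMSO array by a wide margin. ZCCHC24, a zinc finger protein of the CCHC type, had 456, 442 and 482 with VPA against 118, 138 and 106 with DMSO, a 3.81-fold rise (log2 1.93 ± 0.16, adjusted p = 1.6e-09). PPP1R26, a regulatory subunit of protein phosphatase 1, had 179, 162 and 189 with VPA against 41.3, 56.0 and 53.7 with DMSO, a 3.48-fold rise (log2 1.80 ± 0.17, adjusted p = 1.6e-08). In both genes the groups stood clear of each other. ZDHHC11, a palmitoyltransferase gene, rose 3.94-fold (adjusted p = 5.4e-08), but its probe set cannot be assumed to separate it from the near-identical copy ZDHHC11B.

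In the other genes among the 20 largest rises all VPA arrays were above all DMSO arrays, as the rule that chose them required. JAG2, a Notch ligand, had 116, 94.5 and 117 with VPA against 35.9, 42.5 and 38.7 with DMSO (log2 1.46 ± 0.16, adjusted p = 1.4e-07). EPHA2, an ephrin receptor, had 80.1, 78.3 and 89.2 with VPA against 28.8, 32.1 and 30.4 with DMSO (log2 1.41 ± 0.15, adjusted p = 1.5e-07), and the ephrin ligand EFNA4 rose by 1.37 ± 0.13. The DMSO values of EFNA4, between 18.2 and 20.7, were at the level of the lower quartile. Among transcription factors, BATF3, an AP-1 family factor, rose by 1.76 ± 0.14, POU4F1, a factor of sensory neurons, by 1.42 ± 0.18, and ZHX2, a homeobox repressor, by 1.38 ± 0.27. POU4F1 had 111, 99.0 and 103 with VPA against 34.9, 44.6 and 35.8 with DMSO, which do not overlap. Among genes of vesicles and the membrane, SYNGR3, a synaptic vesicle protein, rose by 1.58 ± 0.20, STON1, an adaptor of endocytosis, by 1.89 ± 0.21, and SH3BP4, which acts in receptor endocytosis, by 1.32 ± 0.15. SLITRK5, a neuronal membrane protein of synapses, had 202, 216 and 191 with VPA against 73.4, 83.0 and 78.8 with DMSO (log2 1.36 ± 0.13, adjusted p = 2.3e-08). ST3GAL5, the enzyme that makes the ganglioside GM3, had 469, 440 and 420 with VPA against 171, 181 and 167 with DMSO (log2 1.35 ± 0.11, adjusted p = 2.2e-09). RAB40B, a small GTPase, reached the highest intensity of these 20 genes with VPA, 682, 719 and 674 against 270, 295 and 250 with DMSO (log2 1.35 ± 0.15). The remaining members were the secreted glycoprotein STC2 (log2 1.69 ± 0.20), the FERM domain protein EPB41L4B (1.52 ± 0.14), the noncanonical poly(A) polymerase TENT5A (1.36 ± 0.16) and TRIP10, an F-BAR protein that binds CDC42 (1.36 ± 0.16).

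Some of these sizes depend on the probe set or the pseudocount. Averaged over their probe sets, the log2 changes were 0.93 for STON1, 0.97 for STC2 and 0.81 for RAB40B. A pseudocount of 32, which shrinks changes of dim genes, gave 1.12 for STON1, 0.94 for SYNGR3, 0.87 for EPHA2, 0.85 for ZHX2, 0.71 for EFNA4 and 0.73 for TENT5A, all still past the threshold.

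The 20 largest falls were led by PRDM10, a zinc finger transcription factor of the PRDM family. It had 51.8, 58.0 and 67.7 with VPA against 179, 202 and 183 with DMSO, a log2 change of -1.66 ± 0.14 or a 3.15-fold lower level (adjusted p = 2.6e-09). It was the 1 member of 11 measured PRDM genes to pass (9.09% fell, against 4.72% of all genes), in a list made because PRDM10 was a leading gene. UBTF, which opens ribosomal RNA genes for RNA polymerase I, had 95.3, 94.2 and 117 with VPA against 348, 261 and 249 with DMSO, 2.77-fold lower (adjusted p = 3.7e-06). LANCL2, a LanC-like protein, had 216, 227 and 233 with VPA against 535, 498 and 554 with DMSO, 2.34-fold lower (adjusted p = 3e-09). In these 3 genes every VPA array was below every DMSO array.

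The other large falls are given by what their products do. SMG9, a factor of nonsense-mediated decay, had 49.0, 33.5 and 58.7 with VPA against 123, 113 and 108 with DMSO (log2 -1.30 ± 0.21, adjusted p = 6e-05). INTS7, an Integrator subunit, had 529, 537 and 569 with VPA against 1190, 1050 and 1010 with DMSO (log2 -0.99 ± 0.10, adjusted p = 6.7e-08), and THOC6, of the THO complex of mRNA export, fell by 0.94 on the log2 scale. The transcription factor genes GABPA, an ETS factor, ZBTB1, a BTB zinc finger protein, and SMAD1, which carries BMP signals, fell by 1.06, 0.95 and 0.97, and TAF6L, a subunit of acetyltransferase complexes, by 1.30. SMAD1 had 181, 194 and 192 with VPA against 370, 352 and 392 with DMSO. KEAP1, the inhibitor of the redox factor NRF2, was the brightest of the group in DMSO but for ZBTB1 and INTS7, with 491, 520 and 518 with VPA against 1030, 1040 and 1100 with DMSO (log2 -1.05 ± 0.12, adjusted p = 3.5e-07). UBXN8, a UBX protein of the endoplasmic reticulum, had 178, 174 and 189 with VPA against 406, 367 and 344 with DMSO (log2 -1.04 ± 0.08, adjusted p = 8.4e-10). The remaining members were FGL1, a fibrinogen-like secreted protein (-1.13 ± 0.14), the kinase CDK10 (-1.10 ± 0.25), AP5S1 of an endosomal adaptor complex (-1.10 ± 0.13), COQ7 of ubiquinone synthesis (-1.10 ± 0.14), PBLD (-1.0 ± 0.12) and TXLNA, a taxilin (-0.95 ± 0.24). The call of TXLNA was lost without VPA array 1 (adjusted p = 0.062). Averaging the probe sets gave -0.95 for PRDM10, -0.35 for TAF6L and -0.55 for ZBTB1, and a pseudocount of 32 gave -0.80 for TAF6L and -0.74 for FGL1.

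**Figure D2:**
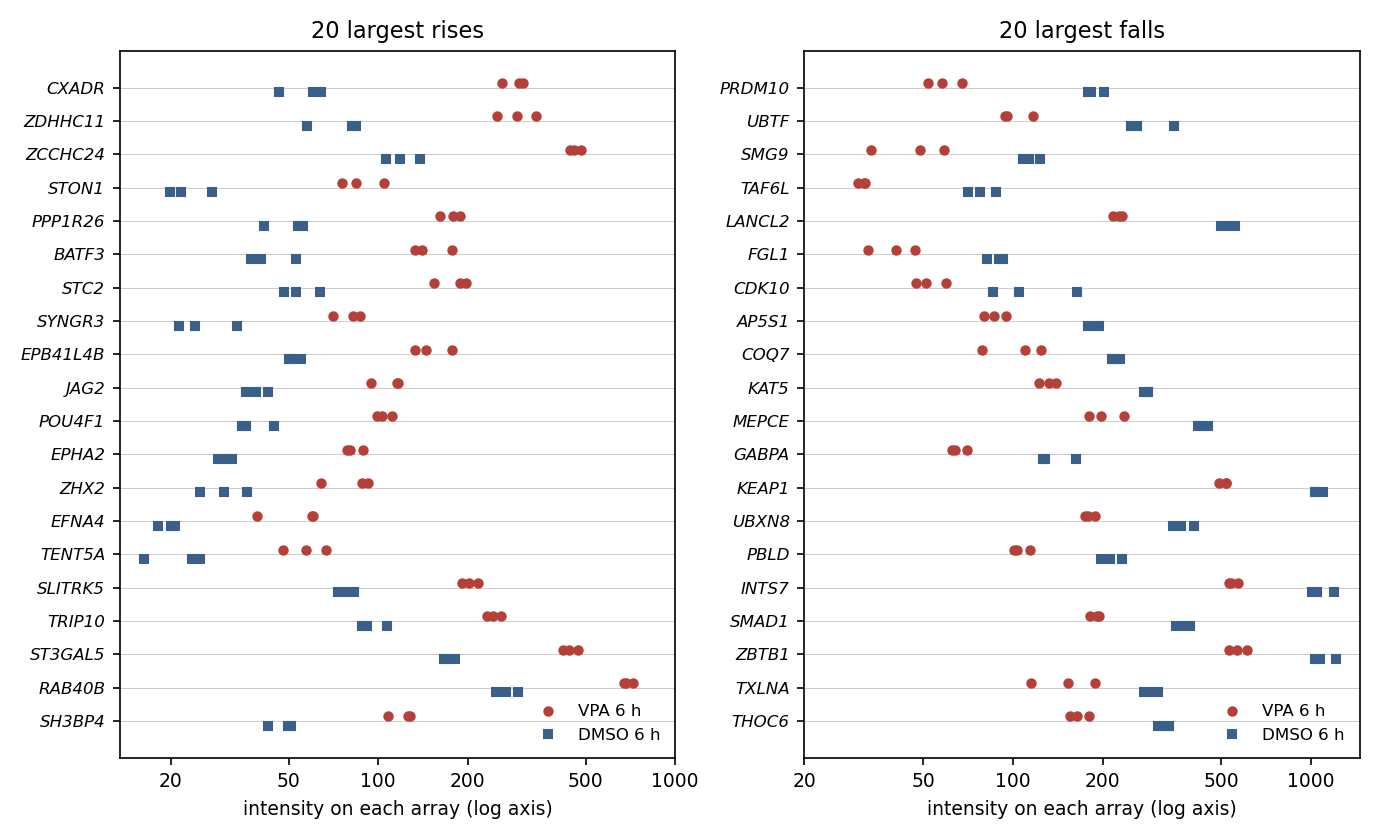
Intensity on each of the 3 VPA (red circles) and 3 DMSO (blue squares) arrays at 6 h, on a log axis, for the 20 largest rises on the left and the 20 largest falls on the right, ordered by log2 change. In each of the 40 genes the 2 groups do not overlap, as the rule that chose them required.

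The sequence just upstream of the transcription start was compared between the genes that rose and the genes that fell. RefSeq entries (GRCh38.p14) were found for 632 of the 773 rises (81.8%), 483 of the 561 falls (86.1%) and 9592 of all 11884 genes (80.7%). The 150 bases upstream are shown for the 3 largest rises and the 3 largest falls that have an entry, all on the strand of the gene, at chr5:850987-851136 (minus strand), chr10:79445625-79445774 (minus), chr9:135479632-135479781 (plus), chr11:130002836-130002985 (minus), chr17:44220883-44221032 (minus) and chr19:43754963-43755112 (minus). Capitals mark the motifs that were searched on both strands. These were the GC box of Sp1 and KLF factors with the letters GGGCGG, the CCAAT box, the TATA box written as TATAAA, the cyclic AMP response element (CRE) written as TGACGTCA, the AP-1 motif written as TGANTCA, the ETS motif written as CCGGAAG and the E-box written as CACGTG.
ZDHHC11: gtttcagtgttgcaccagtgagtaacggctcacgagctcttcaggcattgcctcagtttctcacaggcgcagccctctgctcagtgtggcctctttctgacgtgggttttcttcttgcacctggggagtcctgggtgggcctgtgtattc
ZCCHC24: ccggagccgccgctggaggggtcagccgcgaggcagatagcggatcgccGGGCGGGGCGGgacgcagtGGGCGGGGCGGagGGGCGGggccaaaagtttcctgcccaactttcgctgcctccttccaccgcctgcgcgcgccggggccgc
PPP1R26: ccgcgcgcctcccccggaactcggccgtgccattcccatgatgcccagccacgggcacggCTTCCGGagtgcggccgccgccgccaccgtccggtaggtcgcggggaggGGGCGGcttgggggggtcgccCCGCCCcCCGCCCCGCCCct
PRDM10: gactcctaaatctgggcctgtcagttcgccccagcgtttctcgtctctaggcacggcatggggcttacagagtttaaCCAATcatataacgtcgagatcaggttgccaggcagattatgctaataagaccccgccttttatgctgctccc
UBTF: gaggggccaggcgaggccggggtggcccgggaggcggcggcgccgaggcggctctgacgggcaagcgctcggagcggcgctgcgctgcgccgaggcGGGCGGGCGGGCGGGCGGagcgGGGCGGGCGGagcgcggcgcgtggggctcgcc
SMG9: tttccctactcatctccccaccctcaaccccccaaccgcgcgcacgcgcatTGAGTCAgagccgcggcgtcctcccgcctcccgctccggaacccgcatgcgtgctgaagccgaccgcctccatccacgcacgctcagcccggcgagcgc
ZCCHC24 and PPP1R26 held 5 and 4 GC boxes, UBTF held 6, and ZDHHC11, PRDM10 and SMG9 held none, so the motif did not part the 3 rises from the 3 falls. PPP1R26 also held 1 ETS motif, PRDM10 1 CCAAT box and SMG9 1 AP-1 motif. Adjacent GC boxes can share bases in these runs.

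Over all matched promoters, the GC box was present in 69.9% of the genes that rose, 56.7% of those that fell and 54.0% of all genes. The median GC content was 71.3% in rises, 66.0% in falls and 66.0% in all genes, but among genes changed at least 2-fold the sets lay close together, with a GC box in 68.4% of 57 matched rises and 66.7% of 12 matched falls and a median GC of 70.7% and 69.0%. The ETS motif was present in 7.75% of rises, 14.1% of falls and 10.5% of all genes. The CRE was present in 3.8% of rises, 2.48% of falls and 2.42% of all genes, and the TATA box in 3.16%, 3.52% and 5.69% of these sets. CCAAT, AP-1 and E-box shares lay at 29.7%, 1.9% and 5.7% in rises, 28.4%, 2.48% and 7.45% in falls, and 27.6%, 2.88% and 5.91% in all genes. Genes that rose were also longer, with a median length of 41.3 kb against 29.4 kb for falls and 28.7 kb for all genes. These shares were not tested, and a match in a window of this length describes its letters only.

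Of 20 measured histone acetyltransferase genes, 5 fell and none rose (25% of the list fell, against 4.72% of all genes), with a median log2 change of -0.15. KAT5 (TIP60), the catalytic subunit of NuA4, had 122, 132 and 140 with VPA against 283, 275 and 283 with DMSO, a log2 change of -1.09 ± 0.18 (adjusted p = 8.6e-05). KAT6B, of the MYST family, had 81.1, 84.0 and 96.8 with VPA against 167, 156 and 148 with DMSO (log2 -0.84 ± 0.09, adjusted p = 1.1e-07). The VPA arrays lay below the DMSO arrays in both. KAT7 fell by 0.60 ± 0.13 on the log2 scale, and the paralogous coactivators CREBBP and EP300 fell by 0.55 ± 0.10 and 0.41 ± 0.09. EP300 had 229, 279 and 277 with VPA against 313, 384 and 343 with DMSO. The count of 5 was found with each of the 6 arrays left out, but 1 member also rose in 6 of the other settings, among them the 6 arrays fitted alone and the fit without array 1 of DMSO at 24 h. NCOA1, a nuclear receptor coactivator, had 296, 314 and 349 with VPA against 246, 256 and 239 with DMSO, which do not overlap, at 0.37 ± 0.13 (adjusted p = 0.065). CREBBP changed by -0.33 when its 2 probe sets were averaged.

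Among 26 measured bromodomain proteins, many but not all of which read acetylated lysine, 6 fell and none rose (23.1% fell, against 4.72% of all genes), with a median of -0.13. ZMYND8 had 752, 682 and 716 with VPA against 1010, 985 and 1040 with DMSO (log2 -0.50 ± 0.11, adjusted p = 0.0027). ZMYND11, a reader of elongating chromatin, had 1840, 1590 and 1730 with VPA against 2390, 2390 and 2450 with DMSO (log2 -0.49 ± 0.09, adjusted p = 0.00035). BRD8, a subunit of the KAT5 complex, fell by 0.42 ± 0.10. The groups were apart in all 3. With probe sets averaged, ZMYND8 did not pass (-0.44, adjusted p = 0.055) and BRD8 changed by -0.22.

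Of 15 measured HDAC and sirtuin genes, HDAC9, a class IIa member, alone passed (6.67% fell, against 4.72% of all genes). It had 243, 282 and 240 with VPA against 419, 428 and 414 with DMSO, a log2 change of -0.72 ± 0.11 (adjusted p = 2.8e-05). The class I genes HDAC1, HDAC2 and HDAC3 gave 0.14 ± 0.10, 0.02 ± 0.07 and 0.15 ± 0.10 (adjusted p = 0.51, 0.92 and 0.46). HDAC2 had 1950, 1890 and 1950 with VPA against 1920, 1940 and 1850 with DMSO, so its groups overlapped. Of 25 subunits of HDAC corepressor complexes, 4 rose and none fell (16% rose, against 6.5% of all genes). SAP30L, of the SIN3 complex, had 477, 450 and 502 with VPA against 298, 302 and 296 with DMSO (log2 0.67 ± 0.09, adjusted p = 4.5e-06), and ING2, a PHD finger subunit of the same complex, rose by 0.42 ± 0.09. The count of 4 was 2 without VPA array 1 or 2 or DMSO array 1 or 3. With the 6 arrays fitted alone, 3 of these subunits rose and 2 fell.

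Of 44 Polycomb and histone methylation enzymes 6 rose and 6 fell (13.6% each, against 6.5% and 4.72% of all genes). KDM5B, a demethylase of H3K4, had 317, 344 and 357 with VPA against 176, 155 and 161 with DMSO (log2 1.04 ± 0.14, adjusted p = 3.2e-06). CBX7, a Polycomb reader, rose by 0.92 ± 0.18 and KDM4C, a demethylase of H3K9, by 0.54 ± 0.10. SUV39H1, which methylates H3K9, had 234, 256 and 304 with VPA against 421, 513 and 448 with DMSO (log2 -0.80 ± 0.16, adjusted p = 0.00083). Its groups did not overlap. The 6 falls were 2 without VPA array 1 or without DMSO array 2, and CBX7 changed by 0.52 with a pseudocount of 32. Of 56 measured histone genes (1.79% fell, against 4.72% of all genes), H2BC21 alone passed (log2 -0.42 ± 0.13, adjusted p = 0.027). Its call was lost without VPA array 1 or 3 or DMSO array 1 or 3 and after a second quantile normalization (adjusted p = 0.064).

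**Figure D3:**
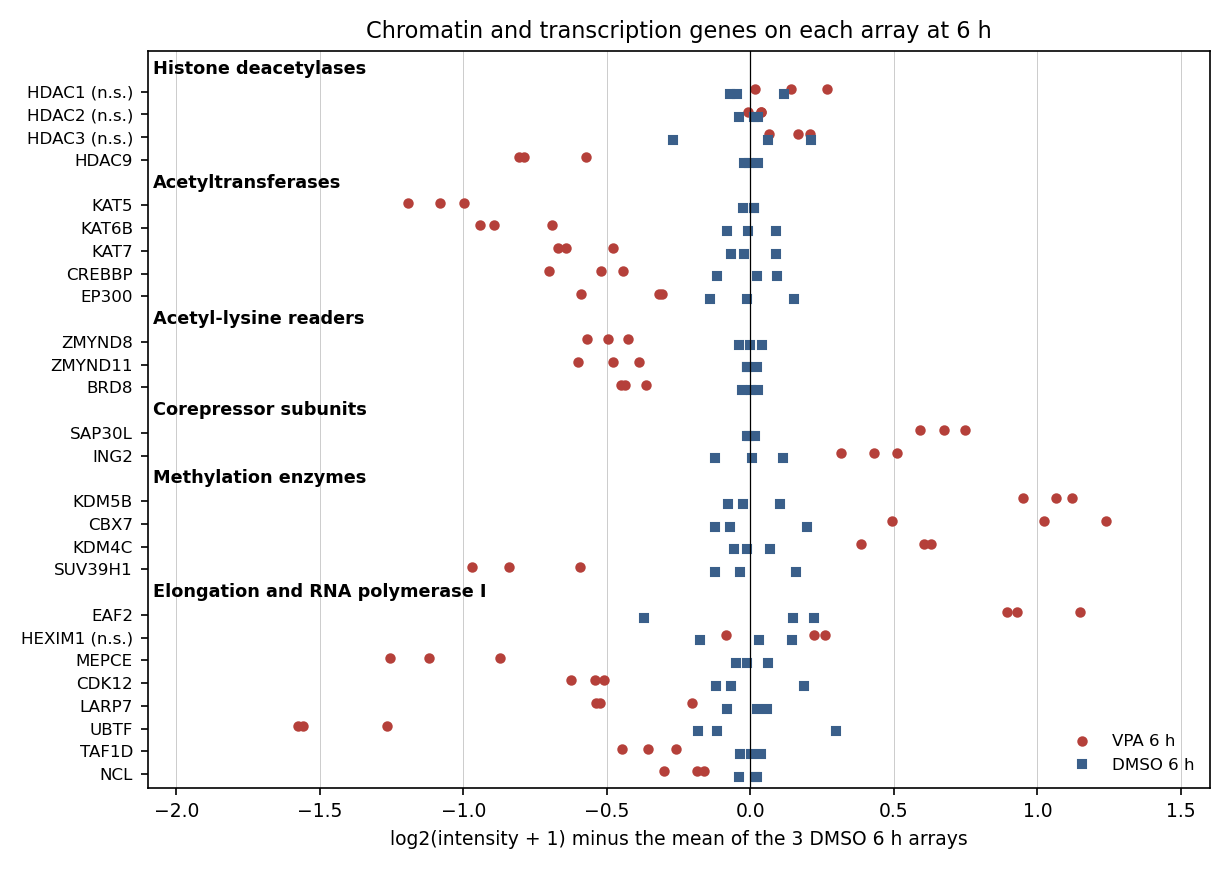
Each row is a gene, and the horizontal axis gives log2(intensity + 1) minus the mean of the 3 DMSO arrays; red circles are the 3 VPA arrays and blue squares the 3 DMSO arrays at 6 h, and n.s. marks genes that did not pass. The acetyltransferases and bromodomain readers drawn are members that passed as falls, so their place to the left of 0 follows from that choice. In their lists, 15 of 20 acetyltransferases and 20 of 26 bromodomain genes did not pass and are not drawn. HDAC1, HDAC2 and HDAC3 lie around 0, and KDM5B and EAF2 to the right.

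In the machinery of transcription itself, 5 genes of elongation control fell and 2 rose among 33 (15.2% fell, against 4.72% of all genes). MEPCE and LARP7, which cap and bind the 7SK RNA that holds the elongation kinase P-TEFb inactive, both fell. MEPCE had 180, 198 and 235 with VPA against 450, 428 and 417 with DMSO (log2 -1.08 ± 0.16, adjusted p = 2e-05), and LARP7 had 991, 786 and 795 with VPA against 1080, 1190 and 1160 with DMSO (log2 -0.42 ± 0.11, adjusted p = 0.0074). Both genes had all VPA arrays below all DMSO arrays. HEXIM1, the inhibitory protein of the 7SK complex, gave 0.13 ± 0.11 (adjusted p = 0.57). CDK12, a kinase of the RNA polymerase II tail, fell by 0.56 ± 0.12, and EAF2, a partner of ELL elongation factors, had 183, 157 and 153 with VPA against 63.2, 95.7 and 90.9 with DMSO (log2 0.99 ± 0.16, adjusted p = 8.7e-05). The 5 falls were 2 without VPA array 2, LARP7 among the lost calls (adjusted p = 0.056), and the 2 rises were 1 without VPA array 1 or 3 or DMSO array 1 or 3. With probe sets averaged, CDK12 changed by -0.34 and LARP7 by -0.27. Of 28 genes of RNA polymerase I and ribosomal RNA transcription, 3 fell and none rose (10.7% fell, against 4.72% of all genes). These were UBTF, TAF1D of its initiation complex (log2 -0.36 ± 0.07) and nucleolin, NCL (-0.21 ± 0.06). The call of NCL was lost without VPA array 1 or DMSO array 2 or 3 and with the 6 arrays fitted alone (adjusted p = 0.11).

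Genes reported as responsive to HDAC inhibitors in other cells rose in 8 of 38 cases and fell in 1 (21.1% rose, against 6.5% of all genes). CXADR is one of the 8. This list, like the others, was chosen with earlier results of these data known, so its share describes the list and is no independent test. CDKN1A, which codes for the CDK inhibitor p21, had 240, 203 and 220 with VPA against 154, 129 and 92.7 with DMSO (log2 0.84 ± 0.22, adjusted p = 0.01). Its groups did not overlap, but the call was lost without VPA array 1 (adjusted p = 0.051) or DMSO array 3 (adjusted p = 0.10). The death receptor TNFRSF10B (DR5) had 53.0, 53.0 and 69.1 with VPA against 30.7, 30.1 and 25.9 with DMSO (log2 0.98 ± 0.18, adjusted p = 0.00035), the BH3 protein BIK rose by 0.62 ± 0.12, and SAT1, which acetylates polyamines, by 0.52 ± 0.10. TXNIP, the thioredoxin inhibitor often induced by HDAC inhibitors, had 537, 507 and 616 with VPA against 554, 608 and 696 with DMSO, overlapping values with a log2 change of -0.16 ± 0.11 (adjusted p = 0.47). The mean of all probe sets gave 0.40 for TNFRSF10B and 0.32 for SAT1, and a pseudocount of 32 gave 0.57 for TNFRSF10B and 0.32 for BIK.

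Among cell cycle genes, those of DNA replication and mitosis that passed were lower, and those of G1 that passed were higher. Of 52 genes of DNA replication and nucleotide supply, 10 fell and none rose (19.2% fell, against 4.72% of all genes), with a median of -0.13. MCM5 and MCM2, subunits of the replicative helicase, fell by 0.55 ± 0.11 and 0.50 ± 0.11, CDC7, the kinase that fires origins, by 0.51 ± 0.09 and POLE2, a subunit of DNA polymerase epsilon, by 0.48 ± 0.10. CDC7 had 671, 777 and 796 with VPA against 1110, 1080 and 1010 with DMSO, and POLE2 had 507, 541 and 525 with VPA against 756, 733 and 709 with DMSO. Neither gene's groups overlapped. Among 45 genes of G2 and mitosis 5 fell and none rose (11.1% fell, against 4.72% of all genes). The largest of these falls was CCNA2, cyclin A2, with 1330, 1240 and 1330 with VPA against 1920, 1960 and 1890 with DMSO (log2 -0.57 ± 0.09, adjusted p = 4.4e-05). The proliferation marker MKI67 gave -0.22 ± 0.09 (adjusted p = 0.13) on its brightest probe set, but passed with its probe sets averaged (-0.32, adjusted p = 0.044). The 10 falls were 6 without VPA array 2 or DMSO array 2, and the 5 falls were 2 or 3 without any 1 of the 6 arrays.

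Of 24 genes of G1 control, 5 rose and none fell (20.8% rose, against 6.5% of all genes). CCNE1, cyclin E1, had 340, 379 and 412 with VPA against 163, 197 and 162 with DMSO, a 2.16-fold rise (log2 1.11 ± 0.15, adjusted p = 4.2e-06), while CCND1, cyclin D1, gave -0.07 ± 0.09 (adjusted p = 0.77). Of 27 CDK inhibitor and growth arrest genes, 5 rose (18.5%) and 1 fell (3.7%). GAS1, a growth arrest protein of the membrane, had 59.3, 68.7 and 67.6 with VPA against 42.4, 29.4 and 40.2 with DMSO (log2 0.80 ± 0.16), and BTG3, an antiproliferative protein, had 1890, 1770 and 1860 with VPA against 1250, 1260 and 1260 with DMSO (log2 0.55 ± 0.08, adjusted p = 2.2e-05). CDKN1B, which codes for the CDK inhibitor p27, was the one that fell, with 648, 599 and 580 with VPA against 822, 903 and 721 with DMSO (log2 -0.42 ± 0.08, adjusted p = 0.00047). The 5 G1 rises were 3 without VPA array 2 or DMSO array 1 or 3 and 2 without DMSO array 2, and the 5 rises of growth arrest genes were 3 without VPA array 1 or DMSO array 3. With probe sets averaged, 3 G1 genes rose and 1 fell. GAS1 changed by 0.42 as the mean of all probe sets and by 0.49 with a pseudocount of 32.

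MYCN itself did not pass, with 6640, 7120 and 7220 with VPA against 7290, 7530 and 7250 with DMSO (log2 -0.07 ± 0.07, adjusted p = 0.64) on its brightest probe set. Its other two probe sets averaged 385 and 194 with VPA against 674 and 383 with DMSO, log2 changes of -0.82 and -0.98, and the mean of the 3 gave -0.62 (adjusted p = 0.091). The probe sets of MYCN therefore disagree in size. Of the 16 measured genes of its network, 2 rose and none fell (12.5% rose, against 6.5% of all genes). MXI1, a MYC antagonist that binds MAX, had 1210, 1180 and 1170 with VPA against 775, 743 and 673 with DMSO (log2 0.70 ± 0.10, adjusted p = 6.5e-06). MAX, the shared partner, rose by 0.52 ± 0.08 on its brightest of 6 probe sets, and did not pass as the mean of all of them (0.20, adjusted p = 0.38).

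Transcription factors of the sympathetic lineage fell in 4 of 22 cases and rose in 2 (18.2% fell, against 4.72% of all genes). ISL1, a LIM homeobox factor of sympathetic neurons, had 826, 815 and 893 with VPA against 1470, 1410 and 1380 with DMSO (log2 -0.75 ± 0.08, adjusted p = 1.3e-07). MAB21L2 had 1950, 2240 and 2280 with VPA against 3370, 3710 and 3380 with DMSO (log2 -0.69 ± 0.08, adjusted p = 3.5e-07), and its relative MAB21L1 fell by 0.77 ± 0.08. All 3 genes had VPA arrays well below DMSO arrays. TFAP2B, an AP-2 factor of neural crest derivatives, fell by 0.37 ± 0.10, a call lost without VPA array 2 or DMSO array 1 (adjusted p = 0.056 and 0.075), and its mean over probe sets was -0.65. The chromatin organiser SATB1 rose by 0.45 ± 0.11, and the 2 rises were 1 without VPA array 3. GATA3, PHOX2A and HAND2 did not pass, at -0.28 ± 0.11, 0.11 ± 0.09 and -0.44 ± 0.15 (adjusted p = 0.10, 0.57 and 0.061). Without array 1 of DMSO at 24 h, an array outside the comparison that enters the shared spread, the 4 falls were 7, with GATA3 at an adjusted p of 0.044 and HAND2 at 0.029.

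In the catecholamine pathway 4 of 21 genes fell (19%, against 4.72% of all genes) and 2 rose (9.52%, near the 6.5% of all genes). GCH1, the first enzyme of tetrahydrobiopterin synthesis, had 1680, 1830 and 1690 with VPA against 1010, 1000 and 1050 with DMSO (log2 0.76 ± 0.08, adjusted p = 1.4e-07), whereas PTS, the next enzyme of the same cofactor, had 1220, 1050 and 1200 with VPA against 1430, 1540 and 1390 with DMSO (log2 -0.33 ± 0.08, adjusted p = 0.0032). In both the groups did not overlap, in opposite directions. The adrenergic autoreceptor ADRA2C fell by 0.59 ± 0.12, and SLC18A1, a vesicular monoamine transporter, by 0.59 ± 0.16. TH, tyrosine hydroxylase, gave -0.40 ± 0.23 and DBH, dopamine beta-hydroxylase, -0.17 ± 0.11 (adjusted p = 0.35 and 0.37). The 4 falls were 2 without VPA array 1 or DMSO array 3, which ended the call of SLC18A1 (adjusted p = 0.051 and 0.058). The 2 rises were 1 without VPA array 2 or 3 or DMSO array 1 or 3.

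Of 51 synaptic vesicle and exocytosis genes 8 rose and 2 fell (15.7% rose, against 6.5% of all genes). RAB3A, the small GTPase of synaptic vesicles, had 342, 323 and 310 with VPA against 122, 148 and 137 with DMSO (log2 1.26 ± 0.14, adjusted p = 1.5e-07), and SYNGR2, the broadly expressed relative of SYNGR3, rose by 0.89 ± 0.20. SV2A, a vesicle protein and the target of another antiepileptic drug, had 695, 602 and 636 with VPA against 441, 449 and 401 with DMSO (log2 0.58 ± 0.12, adjusted p = 0.00096). No VPA array fell within the DMSO range in these genes. Of 47 cytoskeletal and neurite genes 9 rose (19.1%) and 2 fell (4.26%). The kinesin motors KIF1A and KIF5C rose by 1.02 ± 0.24 and 0.79 ± 0.11, the neuronal tubulin TUBB4A by 0.92 ± 0.22 and DPYSL4, of the collapsin response family, by 0.73 ± 0.15. KIF5C had 442, 475 and 485 with VPA against 236, 301 and 275 with DMSO. Neurofilament NEFM, already abundant, gave 0.07 ± 0.06 (adjusted p = 0.57). Of 67 channel genes 2 rose (2.99%, below the 6.5% of all genes) and 1 fell, the ATP-sensitive potassium channel subunit KCNJ8 (log2 -0.60 ± 0.09). The 8 synaptic rises were 5 without VPA array 3, the 2 synaptic falls were 0 without VPA array 1 or 2 or any 1 DMSO array, the 2 falls among neurite genes were 0 without VPA array 2 or DMSO array 3 and 1 without any 1 of the other arrays, and the 2 channel rises were 0 or 1 without any 1 array. With probe sets averaged, KIF1A changed by 0.51 and DPYSL4 by 0.28.

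VPA is also known to act on GABA, fatty acid and inositol metabolism. ABAT, the GABA transaminase, had 1380, 1350 and 1350 with VPA against 835, 952 and 852 with DMSO (log2 0.63 ± 0.08, adjusted p = 2e-06), and it was 1 of 3 rises among 23 GABA genes, with no fall (13% rose, against 6.5% of all genes). Of 45 genes of fatty acid oxidation, coenzyme A and carnitine, 5 rose (11.1%) and 1 fell (2.22%), against 6.5% and 4.72% of all genes. CRAT, carnitine acetyltransferase, had 76.7, 104 and 113 with VPA against 50.9, 51.5 and 56.0 with DMSO (log2 0.86 ± 0.16), ECI2, an enoyl-CoA isomerase, rose by 0.68 ± 0.13, and ACSL1, a long-chain acyl-CoA synthetase, by 0.58 ± 0.13. The inositol monophosphatases moved apart: IMPA2 had 61.4, 70.2 and 67.3 with VPA against 33.8, 39.1 and 31.6 with DMSO (log2 0.91 ± 0.16, adjusted p = 0.00018), and IMPA1 had 900, 970 and 980 with VPA against 1230, 1210 and 1180 with DMSO (log2 -0.35 ± 0.08, adjusted p = 0.0058). PIP5K1C, a phosphoinositide kinase of synapses, rose by 0.70 ± 0.14. The 3 GABA rises were 1 without DMSO array 3, and the 5 fatty acid rises were 3 without it. The 1 fall among fatty acid genes was lost without DMSO array 1 or 3 or any 1 VPA array. ABAT changed by 0.36 and CRAT by 0.53 as the mean of their probe sets, and IMPA2 by 0.56 with a pseudocount of 32.

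Immediate early and ERK feedback genes were the list with the highest share of rises, 11 of 41 (26.8%, against 6.5% of all genes), with 2 falls. EGR1, a zinc finger factor of the growth factor response, had 438, 417 and 375 with VPA against 263, 247 and 240 with DMSO (log2 0.71 ± 0.13, adjusted p = 0.00038). IER3 rose by 0.86 ± 0.14, the neuronal gene ARC by 0.71 ± 0.17 and ATF3, an ATF and CREB family factor, by 0.61 ± 0.11. DUSP2, an ERK phosphatase, fell by 0.72 ± 0.17, a call lost without VPA array 1 (adjusted p = 0.052) and a change of -0.46 with a pseudocount of 32. The 2 falls were 1 without VPA array 2 or 3 or any 1 DMSO array and 0 without VPA array 1. Of 46 readouts of Wnt, Notch, BMP and TGF-beta signalling 7 rose and none fell (15.2% rose, against 6.5% of all genes). With the 6 arrays fitted alone, 7 of these readouts rose and 3 fell. FZD2, a Wnt receptor, had 320, 242 and 310 with VPA against 132, 132 and 144 with DMSO (log2 1.08 ± 0.15, adjusted p = 6e-06), and the DKK family member DKK3 had 464, 416 and 408 with VPA against 190, 229 and 198 with DMSO (log2 1.06 ± 0.11, adjusted p = 4.1e-08). HES1, a target of Notch signalling, rose by 0.49 ± 0.12. As the mean of all probe sets DKK3 changed by 0.52 and HES1 by 0.27.

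Among 40 genes of the BCL2 family, the apoptosome and death receptors, 5 rose (12.5%, against 6.5% of all genes) and 2 fell (5%, near the 4.72% of all genes). APAF1, the scaffold of the apoptosome, had 143, 179 and 181 with VPA against 75.1, 90.6 and 73.6 with DMSO (log2 1.06 ± 0.12, adjusted p = 4.5e-07). CFLAR (FLIP), an inhibitor of death receptor signalling, had 183, 185 and 184 with VPA against 310, 304 and 296 with DMSO (log2 -0.72 ± 0.11, adjusted p = 2.7e-05), and BCL2L1 (BCL-xL), which blocks mitochondrial apoptosis, had 121, 115 and 109 with VPA against 224, 151 and 186 with DMSO (log2 -0.68 ± 0.16, adjusted p = 0.0042). The groups of all 3 genes were apart. Without DMSO array 1, BCL2L1 did not pass (adjusted p = 0.052) and 1 fall was left. Without VPA array 3 the falls were 4, and without array 1 of DMSO at 24 h the rises were 9 and the falls 4. As the mean of all probe sets APAF1 changed by 0.40 and CFLAR, over 11 probe sets, by -0.30.

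Of 46 genes of the amino acid, endoplasmic reticulum and heat stress response 5 rose (10.9%) and 4 fell (8.7%), against 6.5% and 4.72% of all genes. Of 39 metallothionein and redox genes 3 rose and 3 fell (7.69% each), shares nearer those of all genes. BAG3, a co-chaperone of HSP70, had 312, 286 and 307 with VPA against 153, 163 and 147 with DMSO (log2 0.96 ± 0.09, adjusted p = 6.6e-09), and the zinc exporter SLC30A1 rose by 0.59 ± 0.13. KEAP1 fell, and NQO1, a target of NRF2, fell by 0.48 ± 0.11, to 369, 339 and 360 with VPA against 450, 567 and 484 with DMSO. The stress counts of 5 and 4 were 2 and 2 without DMSO array 1, 3 and 2 without DMSO array 3 or VPA array 1, 3 and 3 without DMSO array 2, 3 and 1 without VPA array 2, and 3 and 4 without VPA array 3, and the 3 redox rises were 1 without DMSO array 1. In the retinoid pathway, RARA, a retinoic acid receptor, had 160, 149 and 166 with VPA against 245, 259 and 224 with DMSO (log2 -0.61 ± 0.10, adjusted p = 4.3e-05), which stand apart, and changed by -0.31 as the mean of its probe sets. CRABP2, a cytosolic retinoic acid binding protein, had 708, 659 and 642 with VPA against 531, 466 and 430 with DMSO, also apart, at 0.50 ± 0.17 (adjusted p = 0.055). It passed in 7 of the other settings tried, among them the 6 arrays fitted alone (adjusted p = 0.0068).

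Epithelial, haematopoietic and glial markers were low in both groups, and mesenchymal markers were not. Of 16 epithelial and 21 haematopoietic and endothelial markers none passed. Summed over the list, the epithelial markers gave 544 to 574 with VPA and 558 to 586 with DMSO, and the haematopoietic and endothelial markers 476 to 503 with VPA and 451 to 507 with DMSO. Of 15 Schwann and glial markers SOX9 alone rose (6.67% of the list, near the 6.5% of all genes). It had 73.2, 84.6 and 83.9 with VPA against 28.2, 36.0 and 44.2 with DMSO (log2 1.16 ± 0.18, adjusted p = 4.7e-05, or 0.73 with a pseudocount of 32). The list summed to 400 to 424 with VPA and 345 to 379 with DMSO. The defining Schwann marker S100B averaged 25.2 with VPA and 23.1 with DMSO, near the lower quartile. Of 40 mesenchymal markers 3 rose (7.5%, near the 6.5% of all genes) and 1 fell (2.5%, against 4.72%). The markers of this list summed to 24400 to 25500 with VPA and 23700 to 23900 with DMSO. The 3 rises were 1 without VPA array 3 or DMSO array 1, and the 1 fall was lost without VPA array 1 or 2 or any 1 DMSO array. Of 44 MHC class I and interferon genes 6 rose and none fell (13.6% rose, against 6.5% of all genes), among them IFI30, a lysosomal thiol reductase, with 226, 207 and 214 with VPA against 96.5, 127 and 119 with DMSO (log2 0.92 ± 0.12), and HLA-E (0.77 ± 0.18). The 6 rises were 3 without DMSO array 3. MCAM, an adhesion molecule of the melanoma and endothelial lineages, rose by 1.24 ± 0.22.

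**Figure D4:**
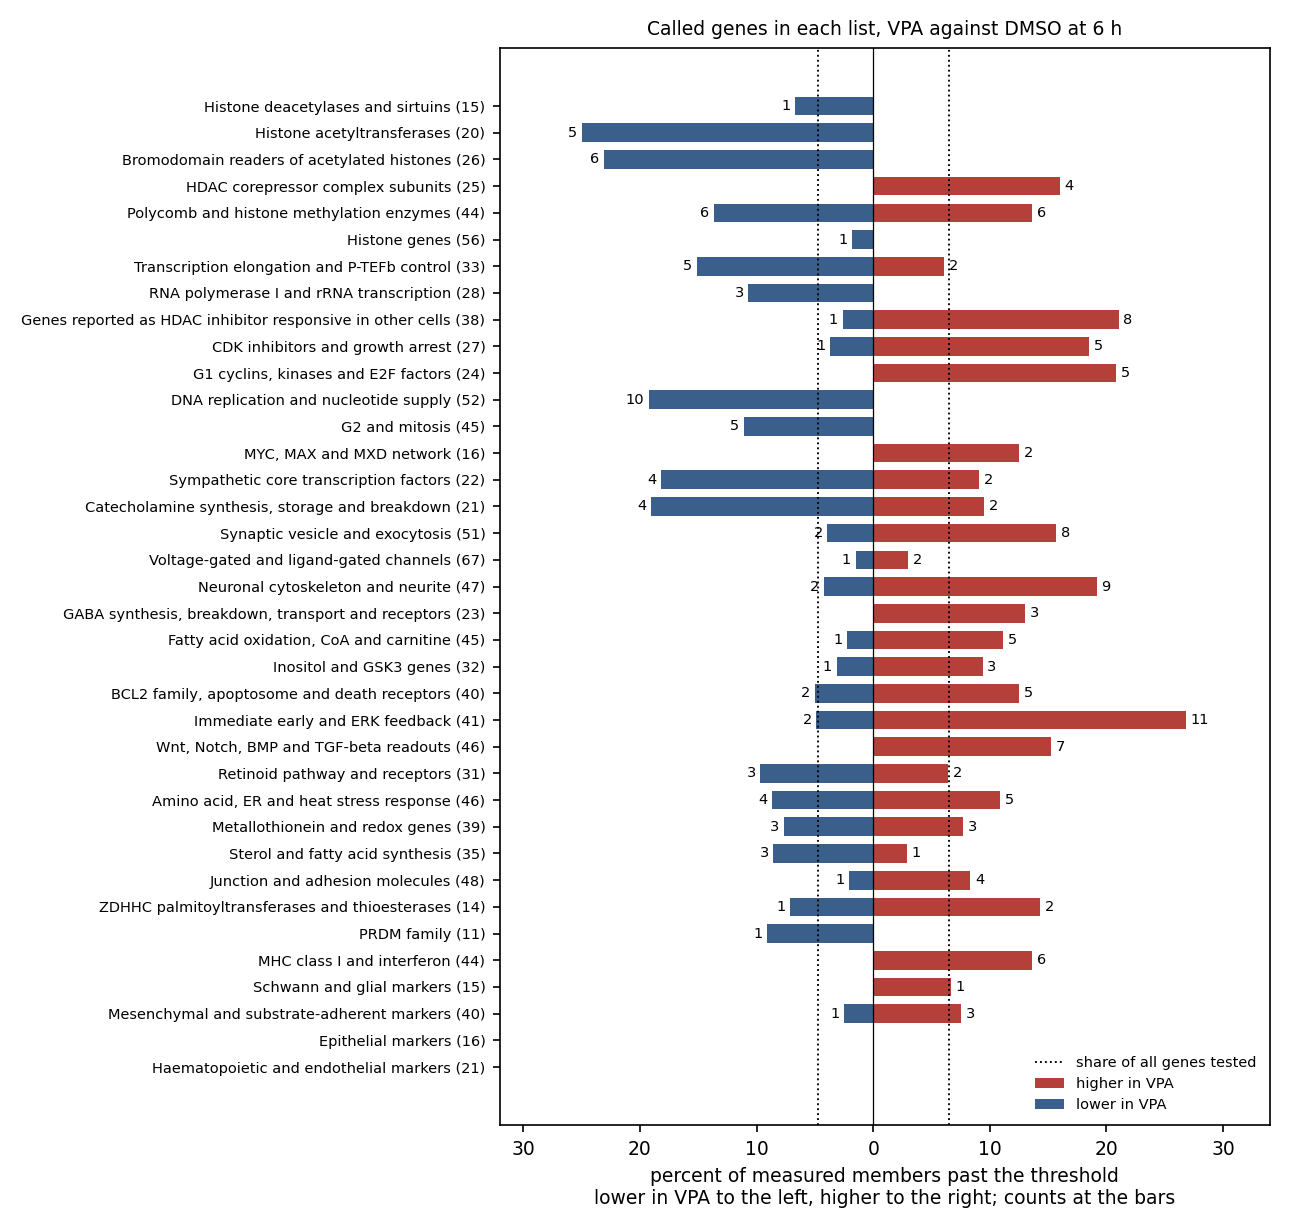
For each gene list, with its number of measured members in brackets, bars show the percentage of members that passed, lower in VPA to the left and higher to the right, with the counts at the bars; dotted lines give the shares over all genes, 4.72% and 6.5%. Acetyltransferases, bromodomain readers and replication genes have falls and no rises, while corepressor subunits, G1 genes and signalling readouts have rises and no falls. These one-sided counts hold for the fit shown. With array weights, acetyltransferases and replication genes had 1 rise each. The same setting gave corepressor subunits 2 falls, G1 genes 2 and signalling readouts 3.

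The same change was measured on other arrays by adding VPA to ATRA for 6 h, a comparison whose groups share no array with VPA against DMSO. All comparisons use 1 estimate of each gene's spread over the 35 arrays, so their lists of calls are not fully independent. There 1431 genes passed (12%), 851 up (7.16%) and 580 down (4.88%). Of the 773 genes that rose with VPA alone, 575 also rose when VPA was added to ATRA, which is 74.4% of the first list and 67.6% of the second, and of the 561 falls 367 also fell, 65.4% and 63.3% of the lists. None of these 1334 genes was called the opposite way. Their median log2 change was 0.51 with ATRA, against 0.53 without, for the rises, and -0.40 with ATRA, against -0.45 without, for the falls. Of the genes changed at least 2-fold by VPA alone, 77 of 79 rises and all 15 falls were called the same way. Across all 11884 genes, which are not independent replicates, the correlation of the 2 changes was 0.818 (Pearson) and 0.671 (Spearman). Without array 1 of ATRA plus VPA, 456 rises (59%) and 310 falls (55.3%) were called the same way, with medians of 0.46 and -0.41. Without it 75 of the 79 larger rises and 12 of the 15 larger falls were called, and the correlations were 0.77 and 0.609.

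Single genes are given here with their errors. CXADR changed by 2.39 ± 0.14 with ATRA, PRDM10 by -1.43 ± 0.14, KAT6B by -1.01 ± 0.09, HDAC9 by -0.70 ± 0.11 and ISL1 by -0.80 ± 0.08. SLITRK5 changed by 1.81 ± 0.13 with ATRA and 1.36 ± 0.13 without, and EGR1 by 0.07 ± 0.13 with ATRA and 0.71 ± 0.13 without. Without array 1 of ATRA plus VPA the changes with ATRA were 2.27 for CXADR, -1.49 for PRDM10, -1.10 for KAT6B, -0.85 for HDAC9, -0.91 for ISL1, 1.69 for SLITRK5 and 0.03 for EGR1. The difference between the VPA effect with and without ATRA was tested gene by gene, and no gene passed with limma, while 281 (2.36%) had an unadjusted p under 0.05. The other settings gave 0 to 3 genes.

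At 24 h, on another 6 arrays, the early changes persisted in part. Of the 773 early rises 422 (54.6%) were higher with VPA at 24 h, which is 36.5% of the 1155 rises at that time (9.72% of all genes), and their median log2 change was 0.39. Of the 561 early falls 88 (15.7%) were lower at 24 h, 29.6% of the 297 falls at that time (2.5% of all genes), their median was -0.11, and 14 were higher. The share of the early falls that was still low depended on array 1 of DMSO at 24 h: without it 328 rises (42.4%) and 142 falls (25.3%) were called the same way, with medians of 0.32 and -0.20, and 9 early falls were called higher. The median change over all genes at 24 h was 0.05, and 0 without that array. After a second quantile normalization 362 rises (46.8%) and 110 falls (19.6%) were called the same way. Of the genes changed at least 2-fold at 6 h, 65 of 79 rises and 2 of 15 falls were called the same way at 24 h, and without array 1 of DMSO at 24 h 60 rises and 9 falls were. Across genes the correlation of the changes at 24 h and 6 h was 0.517 (Pearson) and 0.417 (Spearman), and 0.541 and 0.447 without that array.

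The difference of the 2 effects, VPA against DMSO at 24 h minus the same at 6 h, passed for 284 genes (2.39%), 229 positive and 55 negative, and without array 1 of DMSO at 24 h for 224, 126 positive and 98 negative. The count was 147 to 186 without VPA array 1 or 2 or DMSO array 1 or 2 at 6 h or VPA array 1 or 2 at 24 h, and 462 without DMSO array 3 at 24 h. The arrays of the contrast fitted alone gave 64 genes (49 positive, 15 negative), and array weights gave 767. The log2 3' to 5' ratio was 1.25, 2.33 and 1.22 on the VPA 24 h arrays and 1.35, 0.85 and 0.96 on the DMSO 24 h arrays, above those at 6 h, and its part in the difference was not tested gene by gene; with the ratio as a covariate 306 genes passed. Of the early falls 109 moved back toward DMSO by this test, 63 without array 1 of DMSO at 24 h, and of the early rises 32, or 51 without it. After a second quantile normalization 82 early falls and 69 early rises moved back, so the split between falls and rises depended on the processing. The early genes were called on the same 6 h arrays that this difference uses, which favours a move back. PRDM10 changed by -0.18 ± 0.14 at 24 h and -1.66 ± 0.14 at 6 h, KEAP1 by -0.24 ± 0.12 at 24 h and -1.05 ± 0.12 at 6 h, ISL1 by -0.01 ± 0.08 at 24 h and -0.75 ± 0.08 at 6 h, and HDAC9 by -0.15 ± 0.11 at 24 h and -0.72 ± 0.11 at 6 h. Among rises, ZCCHC24 changed by 0.65 ± 0.16 at 24 h and 1.93 ± 0.16 at 6 h, EPHA2 by 0.25 ± 0.15 at 24 h and 1.41 ± 0.15 at 6 h, and CCNE1 by 0.33 ± 0.15 at 24 h and 1.11 ± 0.15 at 6 h, though CCNE1 did not pass without array 1 of DMSO at 24 h (adjusted p = 0.051). The serotonin receptor HTR2B was called in opposite directions, with 1.27 ± 0.14 at 24 h and -0.66 ± 0.14 at 6 h (-0.41 with a pseudocount of 32), and so was FGL1, with 0.59 ± 0.14 at 24 h and -1.13 ± 0.14 at 6 h. The sodium channel SCN3A was not called at 6 h (0.29 ± 0.14) and changed by 1.93 ± 0.14 at 24 h. CXADR, SLITRK5 and DKK3 did not pass this test and were higher with VPA at both times, at 1.79 ± 0.14, 1.71 ± 0.13 and 1.56 ± 0.11 at 24 h. Without array 1 of DMSO at 24 h the changes at 24 h were 1.86 for CXADR, 1.66 for SLITRK5, 1.61 for DKK3, 1.12 for HTR2B, 0.46 for FGL1, 1.74 for SCN3A, 0.64 for ZCCHC24, 0.18 for EPHA2, 0.29 for CCNE1, -0.29 for PRDM10 and -0.06 for HDAC9. KEAP1 was then called lower at 24 h too, at -0.39 (adjusted p = 0.027), against -0.24 (adjusted p = 0.20) with all arrays.

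**Figure D5:**
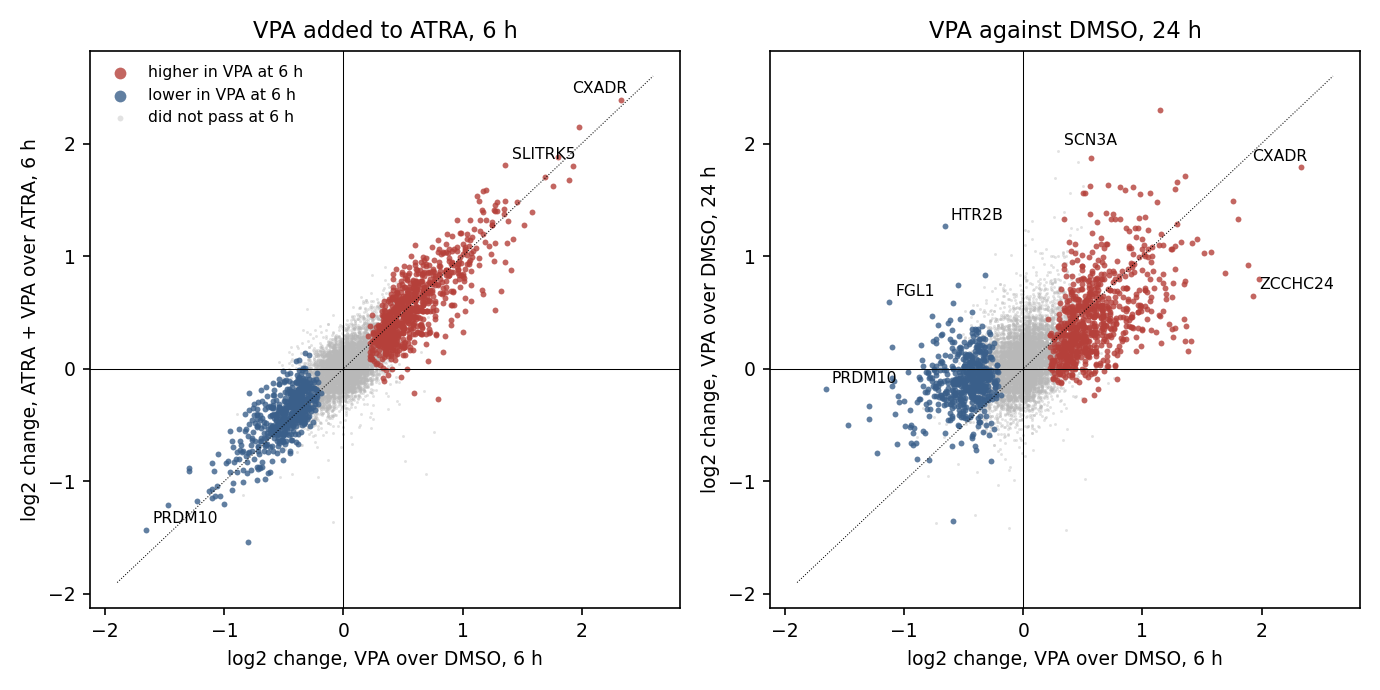
Each point is a gene, with its log2 change for VPA over DMSO at 6 h on the horizontal axis and, on the vertical axis, its log2 change for ATRA plus VPA over ATRA at 6 h (left) or VPA over DMSO at 24 h (right); the dotted line marks equal changes, red genes rose and blue genes fell at 6 h. On the left both colours lie along the line, and on the right the blue genes lie nearer 0, with a median of -0.11 (-0.20 without array 1 of DMSO at 24 h).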

How the data were processed

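RNA of BE(2)-C cells was measured on Affymetrix arrays. The deposited table holds an unlogged intensity for each probe set; the submitters' processing notes name RMA, with no version given in the sources used here. Of 22930 probe sets, 19303 named 1 human gene and were used, and the brightest stood for each of 11884 genes. log2(intensity + 1) was fitted in limma 3.58.1 (R 4.3.3) with 1 term for each of 12 groups over all 35 arrays, and p-values were Benjamini-Hochberg adjusted over all genes. In simulated data with planted changes in VPA against DMSO at 6 h, 80% of rises of 0.5 and 72% of falls of 0.5 (log2) were called, with 12 calls among unchanged genes of 11884.

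Named genes were the 20 largest rises and falls whose arrays did not overlap, up to 6 passing and 2 non-passing members of each list, a short set always named, and the 5 largest of each sign in the interaction and in 24 h minus 6 h; the text gives a choice of these. The members and lists were chosen with earlier results of these data known. Alternatives were another pseudocount, a low-value filter, mean probe sets, normalization, spread and weights, the 3' to 5' ratio, the replicate block and leaving out arrays.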

Additional observations from a re-analysis of the deposited data

Results flagged for a closer look

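For 36 of the named genes the effect of VPA at 24 h differed from that at 6 h by a limma test of the difference itself, with adjusted p under 0.05 over all 11884 genes. The values are log2 differences, the VPA effect at 24 h minus that at 6 h. The effect was smaller in size at 24 h in 30 of the 36 and had the other sign in 9. Many named genes were chosen for a large change at 6 h, and the difference uses the same 6 h arrays. That choice favours a smaller effect at 24 h, so the 30 of 36 describes these genes only. Among genes with a positive change at 6 h, a more negative effect at 24 h was measured for ABAT (-0.81), BAG3 (-0.47), CCNE1 (-0.78), EFNA4 (-0.99), EPHA2 (-1.16), GCH1 (-0.63), MXI1 (-0.68), RAB40B (-0.91), ST3GAL5 (-0.61), TENT5A (-1.11), ZCCHC24 (-1.28) and ZDHHC11 (-1.18). A more positive one was measured for CRABP2 (1.12), EGR1 (0.92), IFI30 (0.69) and SCN3A (1.63). Among genes with a negative change at 6 h, the difference was positive for AP5S1 (1.29), CCNA2 (0.46), COQ7 (1.02), DUSP2 (1.12), FGL1 (1.72), HDAC9 (0.57), HTR2B (1.93), ISL1 (0.74), KAT5 (0.98), KEAP1 (0.81), MAB21L1 (0.66), MAB21L2 (0.77), MKI67 (0.46), NQO1 (0.69), PBLD (0.71), PRDM10 (1.47), SMAD1 (0.94), TFAP2B (0.54), UBXN8 (0.74) and ZBTB1 (0.58). Array 1 of DMSO at 24 h stands apart from its group, with a median intensity of 43.63 against 54.33 and 53.85 on the other two. Without it 27 of the 36 still passed, and BAG3, CCNA2, CCNE1, IFI30, KAT5, MKI67, PBLD, ST3GAL5 and ZBTB1 did not.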

How the results depend on the processing

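Of 119 named genes past the threshold in VPA against DMSO at 6 h, 108 passed under every alternative run and 110 in every fit without 1 array, and no called gene turned direction. DDC, which was not called (-0.02), was 0.01 without VPA array 1 and 0.01 without DMSO array 2, and ranged from -0.04 to 0.01 without 1 array. Array weights gave 2135 genes (1003 lower) for VPA against DMSO, 2426 for VPA added to ATRA, 3 for the interaction, and 767 for 24 h minus 6 h (461 positive, 306 negative). Without 1 array the counts ran from 933 to 1603 for VPA against DMSO (551 to 900 higher, 368 to 703 lower), 998 to 1680 for VPA added to ATRA, 0 to 1 for the interaction, and 147 to 462 for 24 h minus 6 h (113 to 395 positive, 32 to 98 negative). The interaction gave 1 gene with the dimmest 33.3% of genes left out, 2 with a pseudocount of 32 and 1 with an intensity trend. The arrays of the contrast alone gave 64 genes for 24 h minus 6 h (49 positive, 15 negative), and a second quantile normalization gave 174 positive and 118 negative. The cause of these shifts was not tested.

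With the replicate number as a block, 1332 genes passed for VPA against DMSO (762 higher, 570 lower), 1430 for VPA added to ATRA, 0 for the interaction and 287 for 24 h minus 6 h. Same-numbered VPA and DMSO arrays at 6 h had deviations from their group means correlated at 0.19, -0.04 and -0.09. For differently numbered arrays the values ran from -0.14 to 0.19. Deviations within groups of 3 arrays sum to 0, so these values cannot tell whether the numbers pair the samples.

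The number of arrays limits the precision, and dim probe sets have no detection call. All data come from 1 line.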
